A study of Mus musculus with 6 samples.

Results

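miR-146a, miR-146b and miR-155 are microRNAs (miRNAs), small RNAs that repress messenger RNAs. Each is processed out of a folded precursor, the hairpin, whose sides are called the 5p and the 3p arm. Their entries were taken by gene name (Mir146, the older symbol of miR-146a, Mir146b and Mir155) from the sense entries of the deposited count tables. The rule found 6 entries of 1102, the 5p and 3p arms of 3 hairpins, and 0 antisense entries at these hairpins. Small RNA was sequenced in 6 cardiac samples of unchallenged wild-type male C57BL/6J mice, an inbred laboratory strain, aged 18 weeks. The samples have 1 library each, are named heart 1 to heart 6 by their label numbers, and form a single group with no treated arm. The labels give no animal identifiers. The labels call the tissue whole heart, while their extraction text describes frozen ventricular tips. The libraries held between 3966169 and 6007322 counts.

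The genes of miR-146a and miR-155 are known for transcription by NF-kB, the factor that Toll-like receptors and cytokine receptors switch on in immune and endothelial cells. miR-146a and miR-146b are known to repress the adaptor Traf6 and the kinase Irak1 upstream of NF-kB, and so act as brakes. miR-155 is known to be induced in activated macrophages and lymphocytes, where targets such as Socs1 and Inpp5d restrain signalling. No inflamed or NF-kB-deficient heart was measured here, so the response itself is not addressed, only the resting levels.

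The 5p arms are shown because they carry nearly all reads and because miR-146a and miR-146b can be separated only by their last bases. Capitals mark the seed, bases 2 to 8, which pairs with targets.
miR-146a-5p: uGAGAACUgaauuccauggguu
miR-146b-5p: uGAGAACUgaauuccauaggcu
miR-155-5p: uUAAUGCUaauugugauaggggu
These RefSeq sequences match the files' positions on GRCm38. miR-146a-5p and miR-146b-5p share 20 of 22 bases and differ as G18A and U21C, counted from 1 at the 5′ end with the base of miR-146a-5p first. Their first 17 bases are identical, so a read that ends before position 18 cannot be told apart. How such reads were counted is not given in the sources used here, so the split between them is uncertain. In the RefSeq table of 1738 mature sequences, the seed GAGAACU is found in these miRNAs only, and the seed UAAUGCU of miR-155-5p in no other entry.

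The hairpins are shown to place both arms, which are in capitals.
miR-146a hairpin: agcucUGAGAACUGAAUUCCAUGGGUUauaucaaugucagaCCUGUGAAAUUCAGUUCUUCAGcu
miR-146b hairpin: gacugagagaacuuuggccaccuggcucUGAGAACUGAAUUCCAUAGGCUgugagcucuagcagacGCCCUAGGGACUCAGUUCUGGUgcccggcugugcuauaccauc
miR-155 hairpin: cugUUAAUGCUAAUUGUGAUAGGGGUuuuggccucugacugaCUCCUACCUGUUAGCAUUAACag
The miR-146a hairpin (gene Mir146) lies at chr11:43374397-43374461 on the minus strand and overlaps no other gene of the GENCODE annotation. The miR-146b hairpin (Mir146b) lies at chr19:46342762-46342870 on the plus strand, in an intron of the protein-coding gene Mfsd13a. The miR-155 hairpin (Mir155) lies at chr16:84714140-84714204 on the plus strand, in an exon of Mir155hg, its long non-coding host gene. While the 5p arms of miR-146a and miR-146b are near copies, their 3p arms match at 4 of 22 positions when compared base by base without a shift. Both 3p arms hold the run UCAGUUCU at different positions, which this comparison does not align, so it understates their likeness.

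Of the 3 hairpins, miR-146a was the most abundant in every heart. Levels are given in CPM, reads per 1000000 counts of the library. A level of 1.66 to 2.52 CPM, depending on the library, stands for 10 reads. In hearts 1 to 6, miR-146a-5p stood at 758, 922, 846, 1056, 918 and 1180 CPM. Heart 6 was the highest and heart 1 the lowest, a 1.56-fold range. Its mean of 947 ± 151 CPM (SD, n = 6) is 0.0947% of the counts and ranked 58 among 975 mature miRNAs.

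miR-146b-5p, the Mir146b product with the same seed, stood at 276, 180, 208, 292, 298 and 187 CPM in hearts 1 to 6. Hearts 1, 4 and 5 lay above 270 CPM, and hearts 2, 3 and 6 below 210 CPM. The mean was 240 ± 54.4 CPM (SD, n = 6), rank 90. miR-155-5p, from Mir155, stood at 121, 128, 130, 135, 108 and 125 CPM, with heart 5 below the other 5. Its mean of 125 ± 9.57 CPM (SD, n = 6) ranked 116, and its rank within a library ran from 114 to 124.

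The order of these arms was the same in all 6 libraries, and their ranges did not overlap. The highest value of miR-146b-5p (298 CPM) lay below the lowest of miR-146a-5p (758 CPM), and the highest of miR-155-5p (135 CPM) below the lowest of miR-146b-5p (180 CPM). miR-146a-5p exceeded miR-146b-5p 3.98-fold (log2 ratio 1.99 ± 0.45, SD, n = 6), with a ratio from 2.75 in heart 1 to 6.30 in heart 6. It exceeded miR-155-5p 7.53-fold (2.91 ± 0.23, SD), from 6.25 in heart 1 to 9.41 in heart 6. miR-146b-5p exceeded miR-155-5p 1.89-fold (0.92 ± 0.39, SD), from 1.40 in heart 2 to 2.77 in heart 5. Each of the 3 pairs gave p = 0.0312 (exact sign-flip permutation test, two-sided; also 0.0312 after Benjamini-Hochberg adjustment over the pairs), the smallest p that 6 hearts allow. Adapter ligation favours some RNA ends, so these are ratios of reads, not of molecules.

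**Figure D1:**
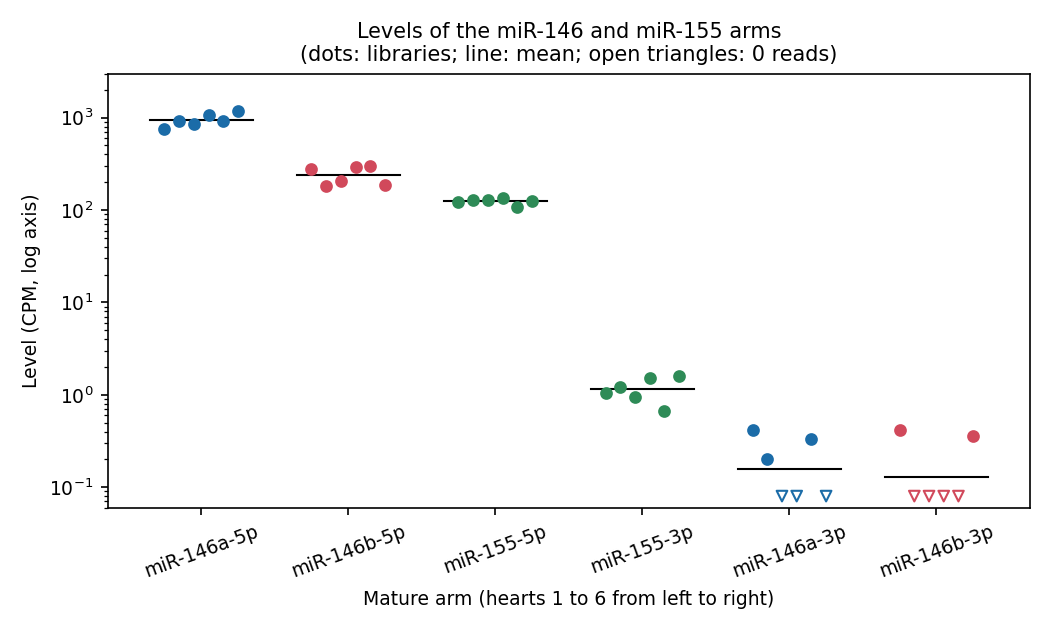
Level of each arm in CPM on a log axis, with hearts 1 to 6 from left to right as dots, the mean as a line and libraries with 0 reads as open triangles at the bottom. The 5p arms lie above 100 CPM without overlap between them, while miR-155-3p stays below 1.61 CPM and the miR-146 3p arms at or below 0.420 CPM.

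The 3 hairpins gave their reads almost wholly from the 5p arm. miR-146a-3p had 2, 1, 0, 0, 2 and 0 reads in hearts 1 to 6, next to 28078 reads of the 5p arm in all. miR-146b-3p had 2 reads in heart 1, 2 in heart 6 and 0 in the other 4, next to 7085 reads of its 5p arm. miR-155-3p had 5, 6, 4, 6, 4 and 9 reads, next to 3649. It was therefore seen in every heart, in contrast to the 3p arms of miR-146.

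Over the 6 libraries, miR-146a gave 5616 reads of 5p per read of 3p (exact binomial 95% interval 2406 to 17296), miR-146b 1771 (691 to 6503) and miR-155 107 (76.7 to 155.2). All 3 hairpins were called for more 5p with the edgeR quasi-likelihood test, against 48.4% of the 213 hairpins tested. The test called 40.8% for more 3p, and 89.2% for either arm. The largest of their adjusted p-values was 2.43e-182, for miR-155. The edgeR fit pooled the spread over all hairpins completely, so these p-values do not rest on the spread of each hairpin. From the hearts alone, 5p exceeded 3p in 6 of 6 for each hairpin (exact sign-flip permutation p = 0.0312). By the share of 5p, miR-146a ranked 5, miR-146b 10 and miR-155 35 of 213.

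**Figure D2:**
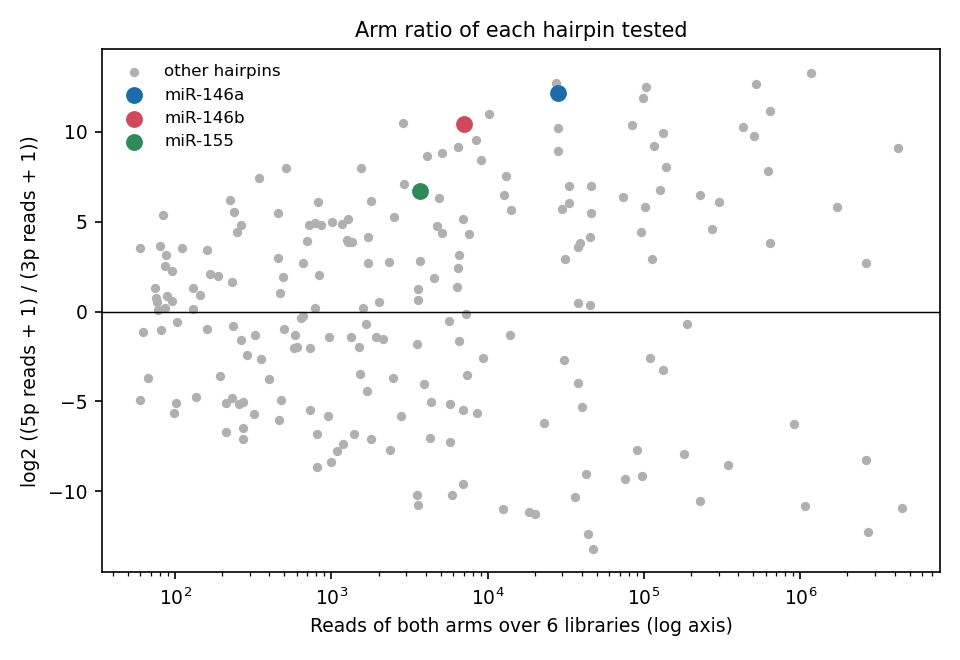
Log2 ratio of 5p to 3p reads, each plus 1, against the reads of both arms (log axis), summed over the 6 libraries, with 1 point per hairpin tested. The 3 hairpins lie on the 5p side, miR-146a and miR-146b near the upper edge and miR-155 lower.

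The 3p arm took a larger share of miR-155 than of either miR-146 hairpin. It made up 0.859%, 0.932%, 0.723%, 1.11%, 0.615% and 1.26% of miR-155 reads in hearts 1 to 6. The highest share in a heart was 0.0554% for miR-146a and 0.190% for miR-146b, below every value of miR-155. The mean difference from miR-155 was 0.898 ± 0.253 percentage points for miR-146a and 0.860 ± 0.207 for miR-146b (SD, n = 6; exact sign-flip permutation p = 0.0312, adjusted p = 0.0469 over 3 pairs). The miR-146 hairpins could not be separated from each other at this depth, with a difference of 0.0381 ± 0.0879 percentage points (exact permutation p = 0.5). In the 3 hearts with 0 reads of miR-146a-3p, up to 0.0839% of its reads could have been missed (3 reads), and up to 0.342% in the 4 hearts without miR-146b-3p. In level, miR-155-3p stood at 1.15 CPM over the pooled libraries (exact Poisson 95% interval 0.797 to 1.61), miR-146a-3p at 0.169 (0.0550 to 0.395) and miR-146b-3p at 0.135 (0.0369 to 0.347). The reads carry no molecular identifiers, so the intervals and limits cover counting error only.

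The balance of the miR-146 hairpins differed between hearts. miR-146b-5p made up 26.7% of the reads of both 5p arms in heart 1 (Wilson 95% interval 25.5 to 27.9), 16.3% in heart 2 (15.4 to 17.3), 19.7% in heart 3 (18.6 to 20.9), 21.7% in heart 4 (20.6 to 22.8), 24.5% in heart 5 (23.6 to 25.5) and 13.7% in heart 6 (12.9 to 14.5). The mean was 20.4% ± 4.90 (SD, n = 6). Hearts 1 and 5 had the highest shares and hearts 2 and 6 the lowest, and the intervals of the first pair do not meet those of the second. This share uses reads of the same library, so scaling between libraries does not affect it. The intervals cover counting error only. The part of library preparation, or of reads too short to tell these arms apart, was not tested. The sum of both arms ranged from 1034 CPM in heart 1 to 1368 CPM in heart 6, a narrower relative range than that of either arm alone. A sum of arms that do not rise together can vary relatively less by arithmetic alone, so no link between the arms is read from this.

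**Figure D3:**
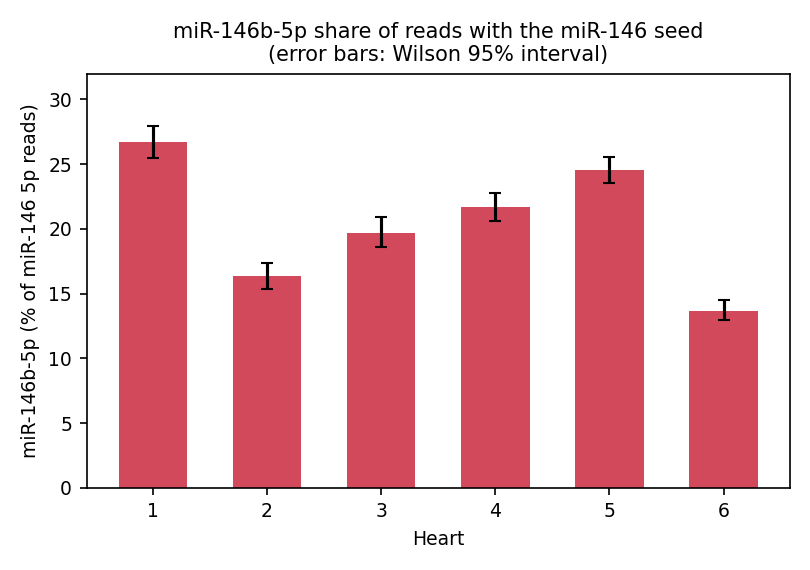
Share of miR-146b-5p among the reads of miR-146a-5p and miR-146b-5p (percent) in each heart, with Wilson 95% intervals as error bars. The share runs from 13.7% in heart 6 to 26.7% in heart 1.

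Each of the 3 5p arms varied between hearts by more than counting noise, as did most miRNAs of their abundance. The chi-square test, adjusted over the 346 miRNAs averaging 10 or more reads, called 72.0% of them, and 90.3% of the 207 with at least 100 reads. Members at 3 of 3 are therefore close to the background. The adjusted chi-square p was 3.80e-127 for miR-146a-5p, 7.04e-65 for miR-146b-5p and 0.00258 for miR-155-5p. The call of miR-155-5p rested on heart 5, without which its adjusted chi-square p was 0.499. No sample is labelled as a repeat library of another, so the part of library preparation in this spread was not tested.

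The measured spread was smaller for miR-155-5p than for the other two. After TMM scaling, which adjusts library totals for their makeup, the coefficient of variation was 18.3% for miR-146a-5p and 19.1% for miR-146b-5p, against 9.02% for miR-155-5p. Counting alone would give about 1.46%, 2.91% and 4.05%. The median over the 207 miRNAs averaging 100 or more reads was 12.5%. Ordered from the lowest, miR-155-5p took place 52, miR-146a-5p place 159 and miR-146b-5p place 164 of 207. Whether these spreads differ from each other was not tested.

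**Figure D4:**
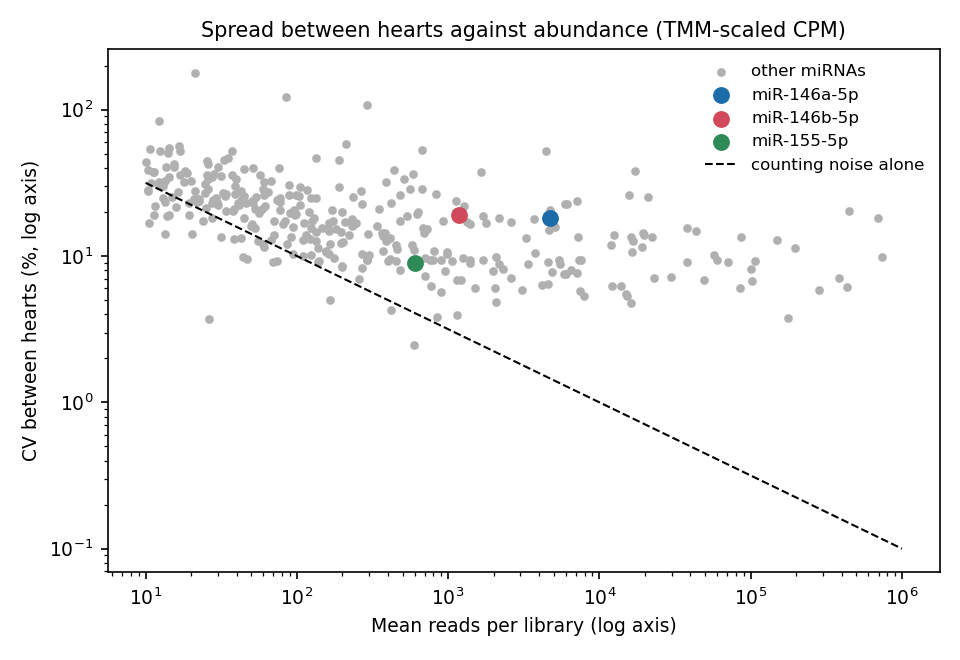
Coefficient of variation between hearts (percent, log axis) against mean reads per library (log axis) for 346 miRNAs, with the counting noise alone as a dashed line. miR-146a-5p (18.3%) and miR-146b-5p (19.1%) lie further above that line than miR-155-5p (9.02%).

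No pair of the 3 miRNAs had a positive relation across the hearts that passed the test. On log2 TMM-scaled CPM, miR-146a-5p and miR-146b-5p had r = -0.45 (exact permutation p = 0.397, adjusted p = 0.596 over 6 relations) and rho = -0.49 (exact p = 0.356, adjusted p = 0.711). When hearts 1 and 6, whose miR-146a-5p lay farthest from its median, were left out, r was 0.14. miR-146a-5p and miR-155-5p had r = 0.43 (exact permutation p = 0.354, adjusted p = 0.596) and rho = 0.49 (exact p = 0.356, adjusted p = 0.711), and r = 0.31 without those hearts. Neither relation passed.

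miR-146b-5p and miR-155-5p ran in opposite order after TMM or DESeq2 scaling, but not on library totals. The scaled levels of miR-155-5p in hearts 1 to 6 were 121, 134, 129, 127, 104 and 134 CPM, and those of miR-146b-5p 277, 188, 206, 274, 288 and 200 CPM. The ranks were exactly reversed, with rho = -1 (exact permutation p = 0.00278, the smallest that 6 hearts give; adjusted p = 0.0167). DESeq2 size factors gave the same rho and adjusted exact p, with r = -0.74. With TMM, Pearson's r was -0.76 (exact permutation p = 0.0181), which did not pass adjustment (0.108), and -0.83 without hearts 2 and 5. On library totals alone rho was -0.26 (adjusted exact p = 0.79) and r -0.40 (adjusted exact p = 0.76). TMM moved the effective totals by between -6.24% in heart 6 and 6.49% in heart 4. Scaled miR-155-5p had a counting SE of 4.09 to 5.49 CPM in a heart. Hearts 2 and 6, and hearts 3 and 4, differed by less than this, and the other neighbours in the order by about as much, except heart 5, which was well below the rest. The exact reversal therefore includes steps that counting cannot settle. The order of miR-146b-5p also has close steps, between hearts 1 and 4 (277 and 274 CPM) and between hearts 3 and 6 (206 and 200 CPM). Its counting SE in each heart was not worked out.

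**Figure D5:**
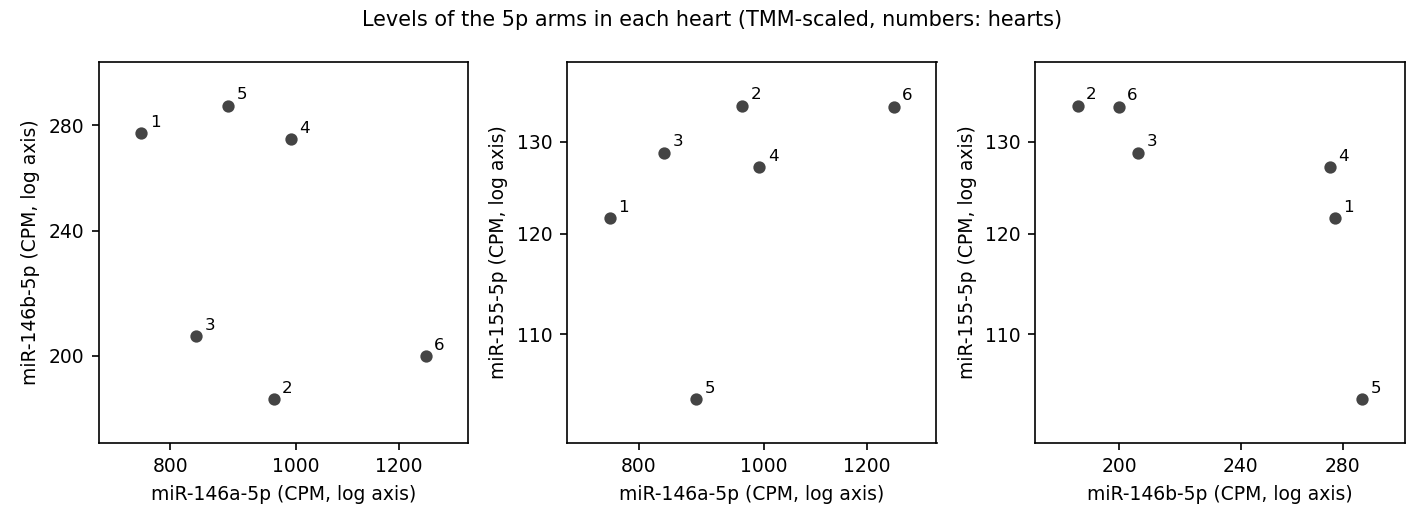
TMM-scaled levels of the 5p arms (CPM, log axes) against each other, with hearts as numbered points. miR-146b-5p and miR-155-5p run from hearts 2 and 6 at the upper left to heart 5 at the lower right, and the other panels show no order that passed the test.

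No relation of the 3 with a list of leukocyte miRNAs passed the test. The list holds miR-142a-5p, miR-142a-3p and miR-342-3p of blood cells, the lymphocyte miR-150-5p and the myeloid miR-223-3p, and held 0.259% ± 0.0347 of the counts (SD, n = 6; 0.218% to 0.298%). All 5 members had a mean above 10 reads, led by miR-142a-5p at 1251 CPM and miR-150-5p at 960 CPM, close to the level of miR-146a-5p. With the summed list, r was -0.34 for miR-146a-5p (exact permutation p = 0.536, adjusted p = 0.643), -0.16 for miR-146b-5p (exact p = 0.756, adjusted p = 0.756) and 0.55 for miR-155-5p (exact p = 0.275, adjusted p = 0.596). The rho values were -0.37 (exact permutation p = 0.497), -0.20 (exact p = 0.714) and 0.20 (exact p = 0.714), each with an adjusted p of at least 0.71. Without the 2 hearts farthest from the median of the miRNA, r was 0.58, 0.89 and 0.03, so these values rest on few hearts. The sum does not describe each list member, since they went opposite ways. The following r values are a description over 6 hearts, whose points share libraries and scaling. With miR-146a-5p, r was 0.60 for miR-150-5p, -0.61 for miR-142a-5p, -0.56 for miR-142a-3p, -0.46 for miR-342-3p and -0.79 for miR-223-3p. With miR-155-5p, r was 0.79 for miR-150-5p, place 12 of 206 in likeness, -0.18 for miR-223-3p and between 0.18 and 0.29 for the other 3. With miR-146b-5p, r was 0.60 for miR-223-3p and between -0.49 and -0.02 for the other 4. In bulk tissue, fewer cells of a type and less RNA per cell cannot be told apart. The muscle markers of the heart were present, with miR-1a-3p, miR-133a-3p, miR-208a-3p and miR-499-5p together at 9.41% to 10.6% of the counts.

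As a description of likeness, each 5p arm was compared with the 206 other miRNAs that had a mean of at least 100 reads, by Pearson r on log2 TMM-scaled CPM over 6 hearts. Names are those of the files, and the points share the libraries and their scaling. The nearest to miR-146a-5p were miR-497-5p (r = 0.90), miR-22-3p (0.90), miR-674-3p (0.89), miR-98-5p (0.88) and miR-128-3p (0.88). The nearest to miR-146b-5p were miR-339-5p (r = 0.96), miR-218-5p (0.93), the beta-myosin miRNA miR-208b-3p (0.92), miR-19b-3p (0.87) and miR-301a-3p (0.85). The nearest to miR-155-5p were miR-208a-5p of the alpha-myosin locus (r = 0.96), miR-486-3p (0.92), miR-378a-3p (0.90), the muscle miR-133a-3p (0.89) and miR-215-5p (0.87). The other muscle markers named above, miR-1a-3p, miR-208a-3p and miR-499-5p, were not among these 5. The 3 sets of 5 share no miRNA and hold no leukocyte miRNA of the list. Of the miRNAs in these sets, only miR-301a-3p is on the list linked to NF-kB or Toll-like receptor signalling given below. In the order of likeness to miR-146a-5p, miR-155-5p took place 59 and miR-146b-5p place 165 of 206. These names were picked as the highest of 206 over 6 hearts, so no p is given.

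Other miRNAs on a list linked to NF-kB or Toll-like receptor signalling spanned the range of these arms and beyond. Of 12 on that list, 11 had a mean of at least 10 reads, and 9 of these 11 varied beyond counting noise. This compares with 72.0% of all miRNAs tested and 90.3% of those averaging 100 or more reads. The median coefficient of variation of the 11 was 13.4%, against 17.0% for all 346 and 12.5% for the 207 averaging 100 or more reads. Of the 11, only miR-187-3p and miR-212-3p averaged fewer than 100 reads. miR-125a-5p (4491 ± 650 CPM), miR-21a-5p (4370 ± 1238 CPM), miR-99b-5p (3867 ± 454 CPM) and miR-125b-5p (3357 ± 532 CPM; SD, n = 6) stood above miR-146a-5p. These are abundant in many tissues. miR-181b-5p (439 ± 67.6 CPM) lay between miR-146a-5p and miR-146b-5p, and miR-301a-3p (233 ± 16.8 CPM) was near miR-146b-5p. let-7e-5p (163 ± 20.1 CPM) and miR-132-3p (78.7 ± 10.8 CPM) lay on either side of miR-155-5p. miR-9-5p (22.0 ± 2.38 CPM), miR-187-3p (12.4 ± 2.40 CPM) and miR-212-3p (12.2 ± 2.74 CPM) were lower. miR-147-3p, known to be induced in stimulated macrophages, had 25 reads over the 6 libraries, fewer than miR-155-3p with 34.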

How the data were processed

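Per the file headers, each deposited file lists a raw read count for every miRNA arm at every locus, and no normalization was applied. The genome build is GRCm38, and DESeq and edgeR are named without a role, per the submitters' processing notes. How reads were aligned and counted, and how those with several matching loci were treated, is not given in the sources used here. Library totals combine 1026 sense entries with 38 antisense entries that lie on an opposite annotated hairpin (GENCODE M21). The remaining 38 antisense entries, with 0.000706% of a library or less, were dropped. Entries of one name were summed, which gave 975 mature miRNAs.

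The arms were tested with edgeR 4.0.16 (glmQLFit, TMM scaling, library as a block) over 213 hairpins with a mean of at least 10 reads, with calls made at 0.05 after adjustment and a ratio of 2-fold or more. Benjamini-Hochberg adjustment was used throughout. Log2 ratios and log2 CPM used a prior count of 1. DESeq2 1.42.0, other scalings, filters and prior counts, and leaving out each heart were tried. Tested on simulated data of 213 hairpins, the arm test recovered 50 of 50 hairpins with a 4-fold ratio and made 0 false calls. The other simulated hairpins had equal arms, and 4-fold is far below the ratios of the 3 hairpins studied. On 346 simulated miRNAs the chi-square test found 40 of 50 with a coefficient of variation of 40 percent and made 1 false call. The other simulated miRNAs had counting noise alone. The simulated spread is above that of miR-146a-5p (18.3%), miR-146b-5p (19.1%) and miR-155-5p (9.02%), so recovery at their spreads was not tested. Each pair of libraries differed by more than sampling noise. The labels number the samples and give no animal identifiers, so permutation p-values measure only the spread between these samples. Chi-square p-values measure departure from counting noise, and edgeR p-values rest on a spread pooled over all hairpins. Named miRNAs are all arms of the 3 hairpins, the listed miRNAs, and the 5 most alike to each 5p arm. The members and lists were chosen with earlier results of these data known.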

Additional observations from a re-analysis of the deposited data

Results flagged for a closer look

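None of the 12 values checked over the 6 hearts stood apart by the rule used (gap to the nearest heart over the whole range, compared with Dixon's critical value). The largest was 0.494, for miR-155-5p in heart 5.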

How the results depend on the processing

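Of 235 alternative values, 199 stayed close to the reported ones. That means the same direction and side of the threshold for tested values, a shift under 1 SD for levels, and counts within 1.5 times. When the library total held sense entries only, the level of every arm rose, because that total is smaller. The means were then 1089 CPM for miR-146a-5p, 276 CPM for miR-146b-5p and 144 CPM for miR-155-5p. Only miR-155-5p shifted by more than 1 SD, since its SD is small, so all CPM values depend on this choice. With 5 hearts the sign-flip test cannot pass 0.05 (smallest exact p = 0.0625), so every level ratio lost its call when a heart was left out. The log2 ratios then ran from 1.86 to 2.10 for miR-146a-5p over miR-146b-5p, from 2.85 to 2.97 for miR-146a-5p over miR-155-5p and from 0.81 to 1.00 for miR-146b-5p over miR-155-5p. The adjusted chi-square p of miR-155-5p ran from 0.00125 to 0.499, the latter without heart 5. The calls of the arm test on the 3 hairpins held with DESeq2, without the filter, on library totals, with a robust prior spread (added after seeing the data) and without each heart.

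Between miR-146b-5p and miR-155-5p, rho was -0.26 on library totals and -1 with DESeq2 size factors. Without each heart rho was again -1, but exactly reversed ranks stay reversed in any subset, so this adds no support. With 5 hearts it could not pass after adjustment. Relations with the leukocyte list changed sign. For miR-146b-5p, r was 0.13 on library totals and ran from -0.50 to 0.37 without each heart, and rho from -0.60 to 0.40. For miR-155-5p, r ran from -0.46 to 0.78 and rho from -0.40 to 0.60. For miR-146a-5p, rho ran from -0.70 to 0.10. The cause was not tested. Depth limits the 3p arms of miR-146, which had 5 and 4 reads in all.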
